A study of Danio rerio with 10 samples.

Results

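Genes of endosomal trafficking were examined in whole zebrafish embryos of a tpcn2 mutant and of wild type. The members are the genes of the deposited count table whose symbols begin with rab, vps, snx or chmp followed by a digit, or with the code of an adaptor complex subunit (ap1 to ap5, a subunit letter other than a, and a digit). The rule found 151 of 14650 genes: 62 Rab genes, 27 Vps genes, 29 sorting nexins, 11 Chmp genes and 22 adaptor subunits. The subunit letters leave out the alpha subunits of AP-2, and the Rab prefix takes in 6 effectors or regulators of Rab proteins that are not GTPases. The rule reads symbols alone, so it also takes in vps72, which encodes a nuclear chromatin protein. The symbols are those of zebrafish genes, and roles given below are known mostly from yeast and mammalian proteins.

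RNA of whole embryos was sequenced in 2 groups of 5 libraries each: the tpcn2 mutant (labelled TPC2 mutant) and wild type of the ABTU strain. Both were at the 17 to 18 somite stage and were kept at 28 °C. The sources used here give neither the mutant allele nor its strain background, nor whether the wild-type embryos are siblings of the mutants or each replicate is a separate clutch. Genotype therefore cannot be told apart from background or clutch, and p-values measure the spread between these libraries, which are called biological replicates in the series' design text. In bulk RNA of a whole embryo, fewer cells of a type and less RNA per cell cannot be told apart.

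Libraries held 17890367 to 22498643 counts. tpcn2, which encodes a cation channel of endosomes and lysosomes, averaged 9.28 ± 1.56 CPM (read counts scaled to a common library total) in mutant embryos and 58 ± 14 CPM in wild type (SD, n = 5 each). The groups did not overlap, with 6.72 to 10.3 CPM in mutant and 47.1 to 81.1 CPM in wild-type libraries, and the edgeR adjusted p was 3.19e-08. Wild-type replicate 1 stood apart from the other wild-type libraries on the second principal component of all tested genes. Calls of members that change without it are given beside the gene.

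Endocytosed membrane and cargo pass through early endosomes, from which they are recycled to the cell surface, returned to the Golgi or carried on to late endosomes and lysosomes. Rab GTPases mark each compartment and recruit tethers, motors and coats to it. Tethering complexes named for yeast vacuolar protein sorting (Vps) mutants dock membranes, retromer and sorting nexins (Snx) retrieve receptors, ESCRT complexes with their Chmp subunits bud cargo into the endosome lumen, and adaptor complexes (AP) load cargo into coated vesicles. The TPC channels sit on the membranes of endosomes and lysosomes, from which they release cations.

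The trafficking genes changed in both directions. Of the 54 members called, 36 had an absolute log2 fold change under 0.5, as did 2950 of the 5011 genes called in all. Of 144 members with enough reads to be tested, mutant embryos had 20 at a higher and 34 at a lower level by edgeR, with an adjusted p under 0.05 over all 11871 tested genes. Together these are 37.5% of the tested members, against 42.2% of all tested genes. Higher calls made up 13.9% of members against 20.6% of all genes, and lower calls 23.6% against 21.6%. A change of at least 2-fold was called for 6 members, 4.17% of those tested against 5.68% of all genes. Values given with ± in what follows are log2 fold changes, mutant over wild type, with the standard error of the difference between 5 libraries of each genotype, and adjusted p-values are edgeR's over all tested genes. The 5 libraries of each genotype did not overlap for 41 members (28.5%, against 28.7% of all genes). The median log2 fold change was -0.02 over members and 0.00 over all tested genes, and the median absolute change was 0.18 against 0.22.

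**Figure D1:**
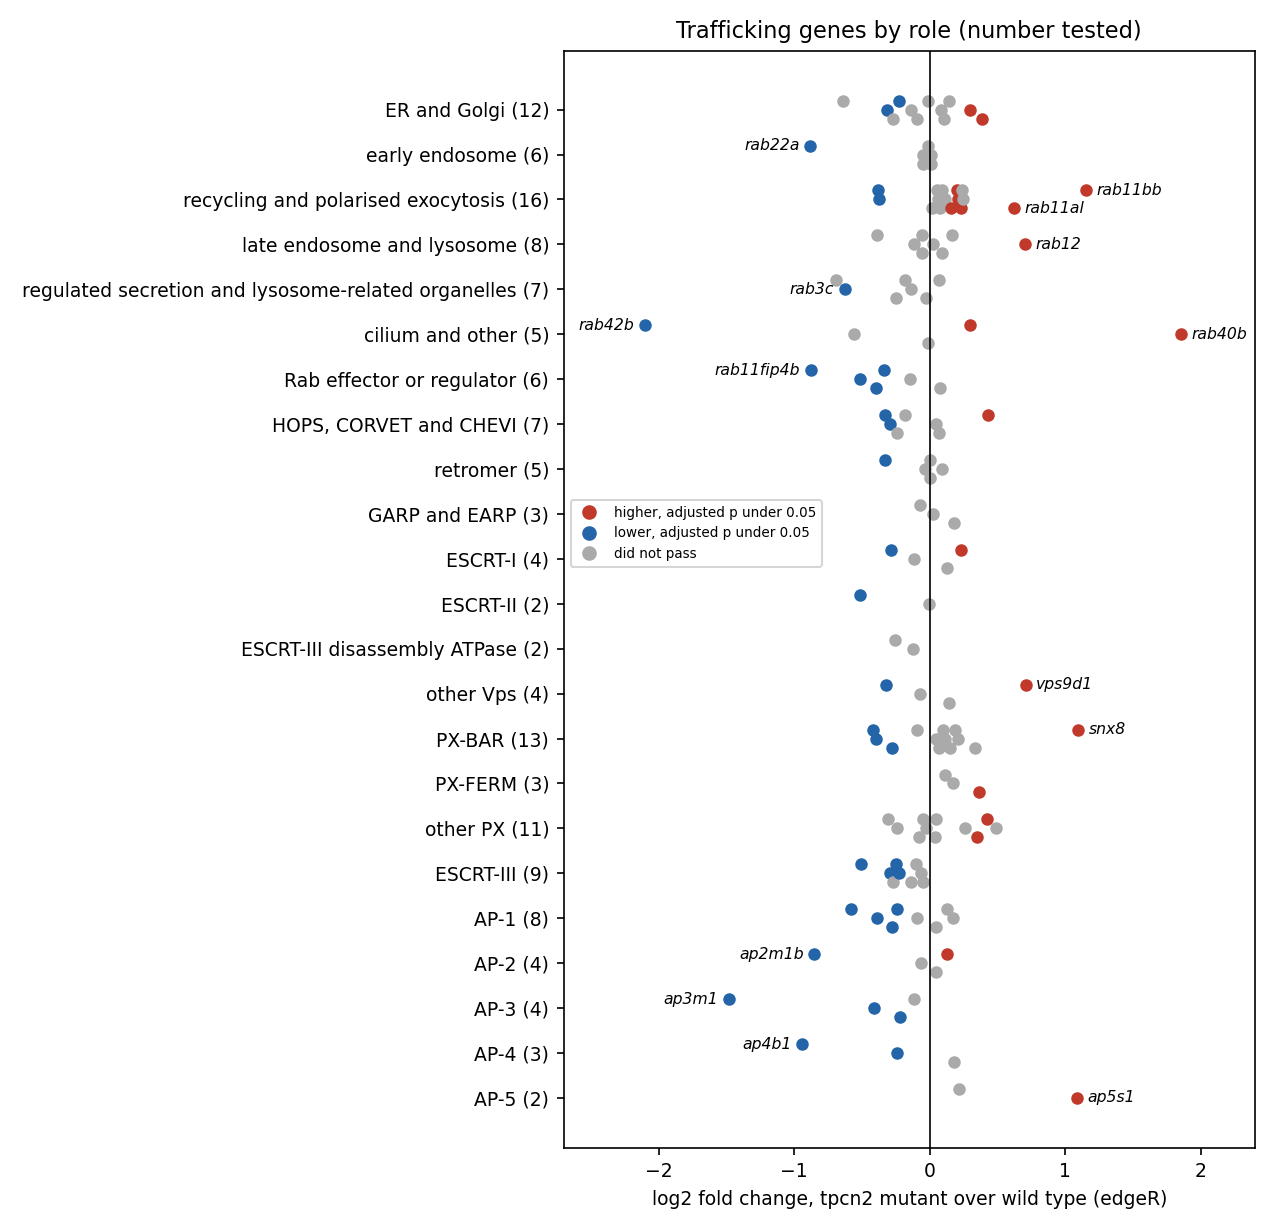
Log2 fold change (tpcn2 mutant over wild type, x axis) of each of the 144 tested members, in rows by role with the number tested in brackets. Red points were called higher and blue points lower at an adjusted p under 0.05, and grey points did not pass. Called genes with an absolute value of at least 0.6 are named: rab40b (1.85) and rab42b (-2.10) lie farthest out. All 9 ESCRT-III points lie left of 0, as do 77 of all 144 points.

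Calls by symbol family were as follows. Genes with a Rab symbol split evenly, 11 higher and 11 lower of 60 tested (36.7% called, against 42.2% of all genes). Without the 6 effectors or regulators, the Rab GTPases gave 11 higher and 7 lower of 54 (20.4% and 13%, against 20.6% and 21.6% of all genes). Vps genes gave 3 higher and 6 lower of 27 (33.3% called), and sorting nexins 4 higher and 3 lower of 27 (25.9%). No Chmp gene was higher and 4 of 9 were lower (44.4%). Of 21 adaptor subunits 2 were higher and 10 lower, so 57.1% of them were called, and 47.6% were called lower, against 21.6% of all tested genes. Whether the families differ from each other was not tested. The 7 members with too few reads to be tested were rab33b, rab33ba, snx10b, snx19a, chmp2ba, chmp3 and ap1s3a. Summed over 5 libraries, chmp2ba had 17 reads in the mutant and 46 in wild type, and ap1s3a had 12 in the mutant and 31 in wild type. chmp3 had 18 reads in the mutant and 28 in wild type, and snx10b had 39 in the mutant and 48 in wild type. snx19a, rab33b and rab33ba had at most 3 reads in either genotype.

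Among the 6 members that changed at least 2-fold were 3 Rab genes, 2 adaptor subunits and 1 sorting nexin. rab40b, whose mammalian counterpart is a Rab with a SOCS box that joins a Cullin ubiquitin ligase, was at 42.4, 31.7, 45.4, 36.5 and 36.1 CPM in the 5 mutant libraries, against 8.35, 10.04, 12.8, 9.03 and 12.8 CPM in the 5 wild-type libraries. Every mutant library was above every wild-type library, and the log2 fold change was 1.85 ± 0.156 (SE; edgeR adjusted p = 1.43e-07). rab42b, a Rab of little-known function, moved the other way and was at 2.72, 2.06, 3.11, 1.84 and 2.34 CPM in the 5 mutant libraries, against 13, 7.23, 9.75, 13.1 and 8.84 CPM in the 5 wild-type libraries. No mutant library reached the lowest wild-type library, with a log2 fold change of -2.10 ± 0.209 (SE; edgeR adjusted p = 1.73e-06). Its counterpart rab42a was at 1.5 ± 0.623 CPM in mutant embryos and 2.2 ± 0.71 CPM in wild type (SD, n = 5 each) and did not pass (adjusted p = 0.148), although it did without mutant replicate 3 (adjusted p = 0.0394). Rab42 proteins are related to Rab39, whose genes rab39ba (-0.39) and rab39bb (-0.11) did not pass either.

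**Figure D2:**
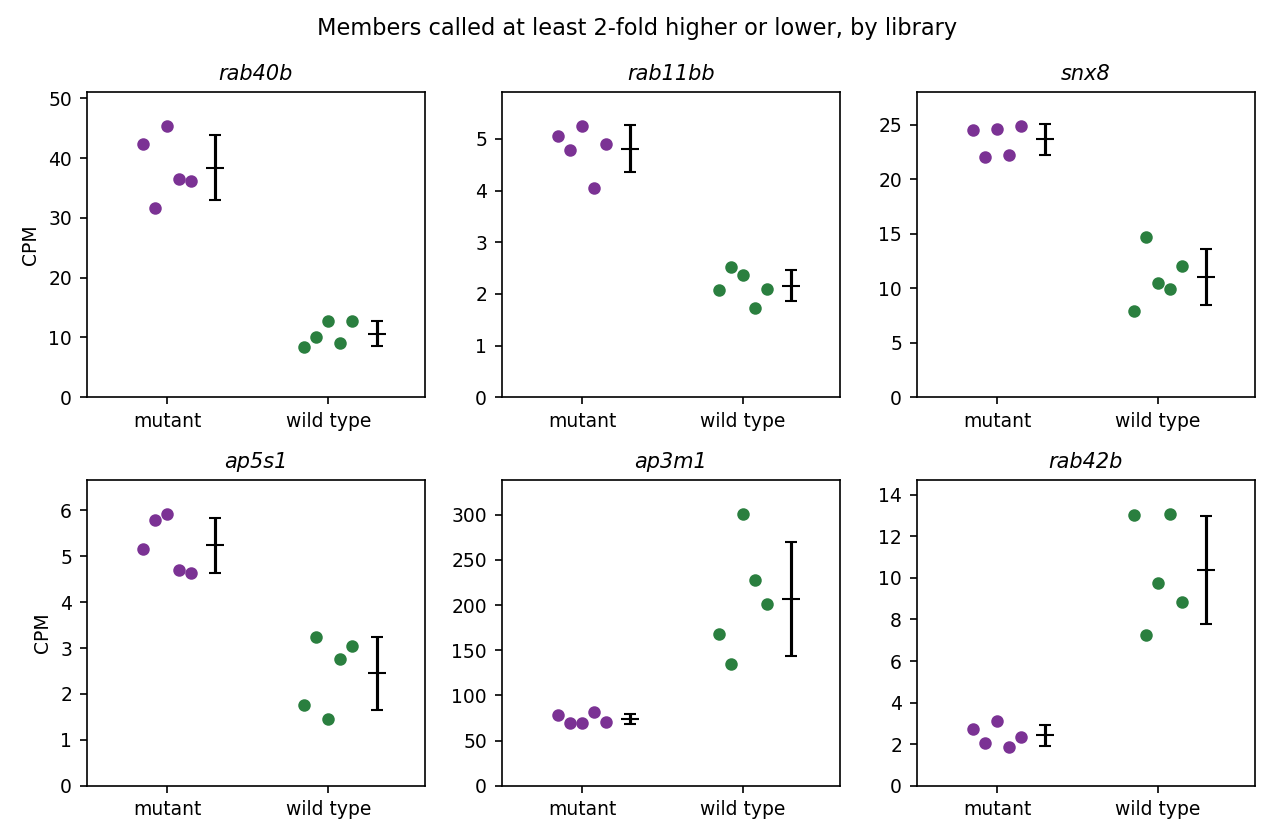
CPM (y axis, from 0) in each library of the 6 members called at least 2-fold higher or lower, with mutant libraries in purple and wild-type libraries in green. Black marks give the mean and SD of 5 libraries; in all 6 genes the groups do not overlap, and wild-type ap3m1 spreads from 135 to 300.5 CPM.

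Of 6 early endosome Rabs 1 was called (16.7%, against 42.2% of all genes). The Rab5 proteins, which drive fusion of early endosomes, are encoded by rab5aa, rab5ab, rab5b and rab5c. Their log2 fold changes lay between -0.05 and 0.01, each with a standard error of at most 0.0573, and their ranges overlapped. rab5aa was at 152 to 162 CPM in the mutant libraries and 152 to 169 CPM in the wild-type libraries. rab20, whose product also acts on early compartments, did not pass (0.01 ± 0.139). rab22a, a relative of Rab5 that acts in sorting and recycling from early endosomes, was at 10.7, 9.24, 10.3, 9.95 and 8.87 CPM in the 5 mutant libraries, against 17.9, 20.7, 17.4, 16.6 and 17.8 CPM in the 5 wild-type libraries. All mutant libraries were below all wild-type libraries, and it fell to about 0.54 of the wild-type level (log2 fold change -0.88 ± 0.0724, adjusted p = 4.93e-06). The Rab5 exchange factor gene rabgef1, a partner outside the members, did not pass (adjusted p = 0.568).

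Among Rabs of recycling and polarised exocytosis higher calls outnumbered lower ones, 6 higher and 2 lower of 16 tested (37.5% and 12.5%, against 20.6% and 21.6% of all genes). Rab11 marks the recycling endosome, and 3 of its 4 genes rose. rab11bb was at 5.06, 4.79, 5.25, 4.05 and 4.91 CPM in the 5 mutant libraries, against 2.07, 2.52, 2.36, 1.73 and 2.1 CPM in the 5 wild-type libraries, with a log2 fold change of 1.15 ± 0.108 (SE; edgeR adjusted p = 3.87e-05). rab11al was at 27.3, 31.8, 27.6, 28.7 and 30.4 CPM in the 5 mutant libraries, against 16.3, 22.6, 18.2, 23 and 14.9 CPM in the 5 wild-type libraries, with a change of 0.62 ± 0.131 (SE; edgeR adjusted p = 0.000618). rab11a rose by less (0.21 ± 0.0573, adjusted p = 0.0345), and its call ended without mutant replicates 1, 2 or 3 or wild-type replicates 2 or 3 (adjusted p = 0.0536 to 0.0875). rab11ba, with 59.7 to 82.7 CPM in the mutant libraries and 60.0 to 83.6 CPM in the wild-type libraries, overlapped fully and did not pass. These 4 genes encode closely similar proteins, so reads may have been split among them. The epithelial Rab11 relatives rab25a (0.08) and rab25b (0.24) did not pass.

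The other higher members of this group were rab14, a Rab between Golgi and endosomes, rab35b, which recycles cargo to the plasma membrane, and rab4a, of fast recycling. rab14 was at 165 to 185 CPM in the mutant libraries and 146 to 163 CPM in the wild-type libraries, without overlap, and rose by 0.16 ± 0.0433 (SE; edgeR adjusted p = 0.0179). The groups overlapped for rab35b (0.21 ± 0.0568, adjusted p = 0.0273) and rab4a (0.23 ± 0.0774, adjusted p = 0.0407). The call of rab35b ended without mutant replicates 2 or 4 or wild-type replicates 1 or 4 (adjusted p = 0.0525 to 0.0679). That of rab4a ended without mutant replicates 1, 3, 4 or 5 or wild-type replicates 3, 4 or 5 (adjusted p = 0.0623 to 0.102) and without scaling of library sizes (0.0513). rab10, which carries vesicles to the basolateral or growing membrane, was lower. It was at 199, 186, 174, 193 and 188 CPM in the 5 mutant libraries, against 251, 259, 234, 228 and 247 CPM in the 5 wild-type libraries, with every mutant library below every wild-type library (log2 fold change -0.37 ± 0.0467, adjusted p = 4.23e-05). Its relative rab8a was also lower (-0.38 ± 0.154, adjusted p = 0.0346), but wild-type replicates 1 and 5 (13.1 and 13.4 CPM) lay within the mutant range of 12.5 to 13.8 CPM, and the call ended without mutant replicates 1, 2, 3, 4 or 5 or wild-type replicates 2, 3 or 4 (adjusted p = 0.0559 to 0.0943) and with limma-voom (0.0589). rab8b (0.24) and rab13 (0.06), of the same branch, did not pass.

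Late endosome Rabs gave 1 call among 8 (12.5%, against 42.2% of all genes). rab7, the Rab that takes late endosomes to fusion with lysosomes, was at 62.5, 63.8, 68.7, 38.7 and 59.4 CPM in the 5 mutant libraries, against 54, 59.7, 58.9, 52.5 and 62.4 CPM in the 5 wild-type libraries. The groups overlapped and the log2 fold change was 0.03 ± 0.153 (SE; edgeR adjusted p = 0.879), with the mutant libraries the more scattered. rab9a, which returns mannose 6-phosphate receptors to the Golgi, gave -0.05 ± 0.0736 (SE; edgeR adjusted p = 0.623). rab12, a Rab that sends recycling receptors to lysosomes in mammalian cells, was higher in every mutant library, at 15.8, 15.8, 12.3, 15.5 and 14.6 CPM in the 5 mutant libraries, against 10.8, 8.75, 8.89, 8.06 and 8.8 CPM in the 5 wild-type libraries. Its log2 fold change was 0.71 ± 0.0971 (SE; edgeR adjusted p = 0.000117). rab34a (0.17), rab36 (-0.05) and the autophagy Rab rab24 (0.09) did not pass, although rab34a did without wild-type replicate 2 (adjusted p = 0.0308) and with DESeq2 (0.0432).

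Among Rabs of regulated secretion and of lysosome-related organelles such as melanosomes, rab3c alone of 7 was called (14.3%, against 42.2% of all genes). It is 1 of the Rab3 genes of synaptic vesicles, and was at 2.39, 3.21, 3.16, 3.22 and 2.34 CPM in the 5 mutant libraries, against 4.73, 4.52, 4.18, 4.69 and 4.11 CPM in the 5 wild-type libraries (log2 fold change -0.63 ± 0.111, adjusted p = 0.00361). The groups did not overlap. The synaptic rab3aa (-0.14 ± 0.0677) and rab3ab (-0.69 ± 0.445) were below 0 but did not pass. Of the reads on these 2 genes, scaled as CPM, rab3ab took 0.909 to 6.05% in mutant and 3.22 to 8.79% in wild-type libraries. Its fold change therefore rests on few reads. The other Rab3 genes, rab3da (0.07) and rab3db (-0.18), did not pass either. Of 18 tested markers of neurons and neural progenitors 12 fell and 1 rose (72.2% called, against 42.2% of all genes). The marker that rose was sox2 (0.45 ± 0.222, adjusted p = 0.0466), with overlapping groups. The 5 that did not pass were elavl3 (-0.14), gng3 (-0.23), syt1a (-0.01), neurog1 (0.10) and gfap (-0.06). The summed level was 1122 to 1248 CPM in mutant and 1418 to 1625 CPM in wild-type libraries, and no marker was at 0. The largest part of the sum was sox3, which averaged 401 CPM in mutant embryos and 490 CPM in wild type. Means of tuba1a and tubb5 were 99.5 and 65.9 CPM in mutant embryos and 199 and 130 CPM in wild type. Other abundant markers changed less. Those of nova2, zic2a, elavl3 and neurog1 were 120, 99.3, 93.6 and 73.5 CPM in mutant embryos. In wild type they were 133, 123, 103 and 68.8 CPM. The part of neural RNA in the rab3c result was not tested. The melanosome Rabs rab27a (-0.25 ± 0.0697, adjusted p = 0.0547) and rab32a (-0.02 ± 0.0759, adjusted p = 0.864) did not pass, although rab27a did without mutant replicate 5 or wild-type replicate 5 (adjusted p = 0.0399 to 0.0482). Of 13 tested pigment cell and neural crest markers 4 fell and 1 rose (38.5% called), and their sum was at 164 to 171 CPM in mutant embryos and 167 to 203 CPM in wild type. Most of the sum came from foxd3 and sox10, which averaged 60.2 and 43.6 CPM in mutant embryos and 69.8 and 51.1 CPM in wild type. Pigment genes such as mitfa, tyrp1b and slc24a5 averaged 2.18, 1.4 and 0.534 CPM in mutant embryos, so the sum says little about pigment cells. Better covered markers of this list did not pass either. Of these, pmela (0.23) and kita (0.35) were above 0, and dct (-0.13), tfec (-0.12) and gch2 (-0.02) below 0. The marker that rose was mlpha, whose product links Rab27 to the melanosome's motor. It was at 4.91 ± 1.47 CPM in mutant embryos and 0.503 ± 0.419 CPM in wild type (SD, n = 5 each). Its log2 fold change was 3.26 ± 0.705 (SE, edgeR adjusted p = 7.09e-05). The wild-type libraries ran from 0 to 0.867 CPM, so this fold change rests on few wild-type reads. The part of these markers in the members' values was not tested.

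Rabs of the endoplasmic reticulum and Golgi gave 2 higher and 2 lower calls among 12 tested (33.3% called, against 42.2% of all genes). The Rabs of the first secretory steps gave no call: rab2a was at 345 to 375 CPM in the mutant libraries and 338 to 376 CPM in the wild-type libraries, and rab1ab (0.11), rab1ba (0.14) and rab1bb (0.08) did not pass. rab1ab passed with DESeq2 (0.0445) and with genes kept from a mean of 1 CPM (0.0498), and rab1ba without mutant replicate 2 or wild-type replicate 1 (adjusted p = 0.0179 to 0.0442). rab33a (-0.64 ± 0.222, adjusted p = 0.0692), of the Golgi, did not pass. Its groups overlapped, and it had only 13 to 34 reads per library. It passed without mutant replicate 3 or wild-type replicate 1 (adjusted p = 0.0231 to 0.0422). rab30, a Golgi Rab, rose without overlap, at 52.1, 49.6, 46.4, 47.8 and 48.9 CPM in the 5 mutant libraries, against 40.7, 35.3, 37.2, 40.3 and 33.3 CPM in the 5 wild-type libraries (log2 fold change 0.39 ± 0.0619, adjusted p = 0.000384). rab6a, of transport within and to the Golgi, rose by 0.30 ± 0.0804 (SE; edgeR adjusted p = 0.00422), with wild-type replicate 1 (129 CPM) inside the mutant range. The pair rab18a and rab18b, whose proteins act on the endoplasmic reticulum and lipid droplets, both fell. rab18b was at 48.9, 40.2, 47.3, 44.3 and 37.6 CPM in the 5 mutant libraries, against 58.4, 51.9, 55.7, 52.4 and 52.6 CPM in the 5 wild-type libraries, a change of -0.31 ± 0.078 (SE; edgeR adjusted p = 0.00394), and rab18a changed by -0.23 ± 0.0548 (SE; edgeR adjusted p = 0.00713). rab23, a ciliary Rab that restrains Hedgehog signalling in mouse, was higher in every mutant library (25.3 ± 1.18 CPM in mutant embryos and 20.5 ± 1.57 CPM in wild type; SD, n = 5 each), with a log2 fold change of 0.30 ± 0.0574 (SE; edgeR adjusted p = 0.00498).

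Effectors and regulators that carry a Rab in their names were lower as far as they were called, 4 of 6 falling and none rising, against 21.6% of all genes falling. rab11fip4a and rab11fip4b encode Rab11 effectors. rab11fip4a was at 14.6, 15.8, 13.6, 15 and 15.3 CPM in the 5 mutant libraries, against 19.1, 23, 18.3, 20.3 and 17.2 CPM in the 5 wild-type libraries, without overlap (log2 fold change -0.40 ± 0.0802, adjusted p = 0.003). rab11fip4b fell by more, at 5.56, 6.71, 7.19, 9.58 and 6.47 CPM in the 5 mutant libraries, against 13.8, 15.8, 9.53, 12.8 and 13.4 CPM in the 5 wild-type libraries. Mutant replicate 4 just exceeded wild-type replicate 3 there, and the change was -0.88 ± 0.175 (SE; edgeR adjusted p = 0.000456). rab11fip3, of the same class, was lower (-0.51 ± 0.213, adjusted p = 0.0398), a call that ended without mutant replicates 2, 3 or 5 or wild-type replicates 2, 3 or 4 (adjusted p = 0.0647 to 0.105) and with limma-voom (0.0577). rab3gap1, which encodes the catalytic subunit of the Rab3 GTPase-activating complex, fell (-0.34 ± 0.117, adjusted p = 0.0175). The groups overlapped for both rab11fip3 and rab3gap1. The gene of the complex's other subunit, rab3gap2, did not pass (0.08 ± 0.117, adjusted p = 0.573), although it was called without wild-type replicate 1 (adjusted p = 0.0153). Nor did rab3ip (-0.14), although it was called lower without wild-type replicate 2 (adjusted p = 0.0424).

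Of 7 tested genes of the tethering complexes HOPS, CORVET and CHEVI 1 rose and 2 fell, 42.9% called against 42.2% of all genes. HOPS and CORVET share a core of Vps11, Vps16, Vps18 and Vps33, to which CORVET adds Vps8 and Tgfbrap1 on early endosomes, and HOPS adds Vps41 and Vps39 on late endosomes and lysosomes. Within the core, vps11 rose and vps33a fell. vps11 was at 51.2, 47.1, 47.2, 48.2 and 49.6 CPM in the 5 mutant libraries, against 40.6, 33.2, 34.5, 34.3 and 38 CPM in the 5 wild-type libraries, and vps33a at 31.3, 29.5, 30.3, 32.8 and 30.3 CPM in the 5 mutant libraries, against 36.6, 37, 37.9, 40.9 and 36.6 CPM in the 5 wild-type libraries. Neither had overlapping groups, with log2 fold changes of 0.43 ± 0.0584 (SE; edgeR adjusted p = 0.000144) for vps11 and -0.29 ± 0.0398 (SE; edgeR adjusted p = 0.00155) for vps33a. vps18 (0.07 ± 0.0781) and vps16 (-0.18 ± 0.0672) did not pass, although vps16 did without mutant replicate 5 or wild-type replicate 5 (adjusted p = 0.0304 to 0.0478). vps8, specific to CORVET, was at 18.3, 20.2, 22, 24.2 and 23.3 CPM in the 5 mutant libraries, against 26.5, 24.5, 25.1, 30.7 and 28.7 CPM in the 5 wild-type libraries and fell (-0.33 ± 0.0944, adjusted p = 0.0106). The gene of the other CORVET subunit, tgfbrap1, a partner outside the members, was lower too (-0.38 ± 0.13, adjusted p = 0.0158), with overlapping groups. vps39, specific to HOPS, was at 20.2 to 27.7 CPM in the mutant libraries and 20.8 to 26.3 CPM in the wild-type libraries and did not pass (0.04 ± 0.109). No vps41 gene is among the 7. vps33b, counted here for CHEVI, did not pass (-0.24, adjusted p = 0.115), although it did without mutant replicate 4 (adjusted p = 0.0399). None of the 3 GARP genes vps51, vps53 and vps54, which tether vesicles at the Golgi, was called.

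vps9d1 rose most among the Vps genes. It encodes a protein with the VPS9 domain found in exchange factors of Rab5. It was at 80.7, 71, 73.9, 86.1 and 82.3 CPM in the 5 mutant libraries, against 46.2, 43.9, 53.4, 44.7 and 52.7 CPM in the 5 wild-type libraries, with all mutant libraries above all wild-type libraries and a log2 fold change of 0.71 ± 0.0787 (SE; edgeR adjusted p = 4.92e-06). vps45, which encodes a partner of endosomal SNAREs, was lower (-0.32 ± 0.126, adjusted p = 0.0309). Wild-type replicate 4 (18.9 CPM) lay within the mutant range, and the call ended without mutant replicates 1, 3 or 5 or wild-type replicates 2 or 3 (adjusted p = 0.0578 to 0.0796). The lipid transport gene vps13a (0.15) and the chromatin gene vps72 (-0.07) did not pass.

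Of 5 tested retromer genes 1 fell and none rose (20% called, against 42.2% of all genes). Retromer is made of Vps35, Vps29 and Vps26, and retrieves receptors from endosomes. vps35 was at 179.7 to 197 CPM in the mutant libraries and 173 to 206 CPM in the wild-type libraries, with a log2 fold change of -0.03 ± 0.0502 (SE; edgeR adjusted p = 0.645). vps26a (0.00 ± 0.0251) and vps26b (0.00 ± 0.0406) did not pass either, nor did vps29 at 0.09 ± 0.0464. vps26bl, a further Vps26 gene, was at 13.6, 13.9, 14.8, 13.9 and 10.9 CPM in the 5 mutant libraries, against 15.6, 17.1, 17.4, 17.1 and 17 CPM in the 5 wild-type libraries and fell without overlap (-0.33 ± 0.0794, adjusted p = 0.00962).

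Of 13 tested sorting nexins that bend membranes with a BAR domain, 1 rose and 3 fell (7.69% and 23.1%, against 20.6% and 21.6% of all genes). snx1a encodes a membrane-shaping partner of retromer and was at 209, 219, 214, 226 and 225 CPM in the 5 mutant libraries, against 312, 299, 269, 294 and 286 CPM in the 5 wild-type libraries. No mutant library reached a wild-type one, and the log2 fold change was -0.42 ± 0.042 (SE; edgeR adjusted p = 1.01e-05). Among the genes of its partners snx6 fell (-0.28 ± 0.0796, adjusted p = 0.00724), with wild-type replicate 1 inside the mutant range, while snx2 (0.05 ± 0.064) and snx5 (0.07 ± 0.0553) did not pass. snx4, of recycling and autophagy, fell as well (-0.40 ± 0.0865, adjusted p = 0.000865), with 76.9 to 90.5 CPM in the mutant libraries and 98.7 to 132 CPM in the wild-type libraries. The related snx7 (0.15) and snx30 (0.11) did not pass, although snx7 did without wild-type replicate 1 (adjusted p = 0.031). snx8, which in mammalian cells acts in transport from endosomes to the Golgi, was at 24.5, 22, 24.6, 22.2 and 24.9 CPM in the 5 mutant libraries, against 7.92, 14.7, 10.5, 9.95 and 12 CPM in the 5 wild-type libraries. It was higher in every mutant library, by 1.097 ± 0.151 (SE; edgeR adjusted p = 1.57e-05). The snx9 and snx18 genes and snx33, of endocytosis, gave no call, although snx33 (0.21) passed without wild-type replicate 2 (adjusted p = 0.0113) and with DESeq2 (0.0455).

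Among sorting nexins without a BAR domain, 3 of 14 tested rose, near the 20.6% of all genes that were higher. None fell, where 21.6% of all genes were lower. snx11 was at 75.9, 76.4, 90.0, 69.3 and 75.3 CPM in the 5 mutant libraries, against 56.6, 54.7, 67.4, 53.4 and 56.4 CPM in the 5 wild-type libraries, without overlap (log2 fold change 0.42 ± 0.0852, adjusted p = 0.000599). snx25 rose by 0.35 ± 0.0765 (SE; edgeR adjusted p = 0.0162). snx17, which binds the tails of receptors and returns them to the surface, rose by 0.36 ± 0.0928 (SE; edgeR adjusted p = 0.00416), although wild-type replicate 1 (34.9 CPM) exceeded mutant replicate 3 (34.1 CPM). The genes of the retromer cargo adaptors Snx27 and Snx3 did not pass, at 0.17 for snx27a, 0.11 for snx27b and 0.04 for snx3. snx22 did not pass (-0.31 ± 0.208), although it did without wild-type replicate 1 (adjusted p = 0.0435).

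The ESCRT genes that were called were lower, with 1 exception. ESCRT-I and II gather ubiquitinated cargo, ESCRT-III polymers of Chmp proteins cut the membrane neck, and the ATPase Vps4 takes the polymers apart. Of 17 tested genes 6 fell and 1 rose (35.3% and 5.88%, against 21.6% and 20.6% of all genes). A log2 fold change below 0 was found for 15 of them, and for 5955 of all 11871 tested genes. All 9 tested ESCRT-III genes were below 0, between -0.51 and -0.05, and 4 of them passed. chmp7, which brings ESCRT-III to the nuclear envelope in human cells, was at 16.5, 17.4, 17.4, 18.6 and 12.6 CPM in the 5 mutant libraries, against 22.3, 24.7, 23, 24.4 and 23 CPM in the 5 wild-type libraries. The groups did not overlap and the change was -0.51 ± 0.101 (SE; edgeR adjusted p = 0.000766). chmp1b was at 93.5, 102, 106, 101 and 106 CPM in the 5 mutant libraries, against 121, 129, 121, 118 and 132 CPM in the 5 wild-type libraries, likewise without overlap (-0.29 ± 0.0447, adjusted p = 0.000419). The Chmp4 proteins form the main filament, and chmp4bb fell (-0.23 ± 0.0566, adjusted p = 0.00527) together with its duplicate chmp4ba (-0.25 ± 0.0873, adjusted p = 0.0418). The call of chmp4ba ended without mutant replicates 1, 2 or 3 or wild-type replicates 1, 2, 3 or 5 (adjusted p = 0.0508 to 0.106) and without a filter on low counts (0.0505). chmp1a, chmp2bb, chmp4c, chmp5b and chmp6b did not pass, although chmp4c did without wild-type replicate 3 (adjusted p = 0.0324) and chmp6b without wild-type replicate 5 (adjusted p = 0.0497).

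**Figure D3:**
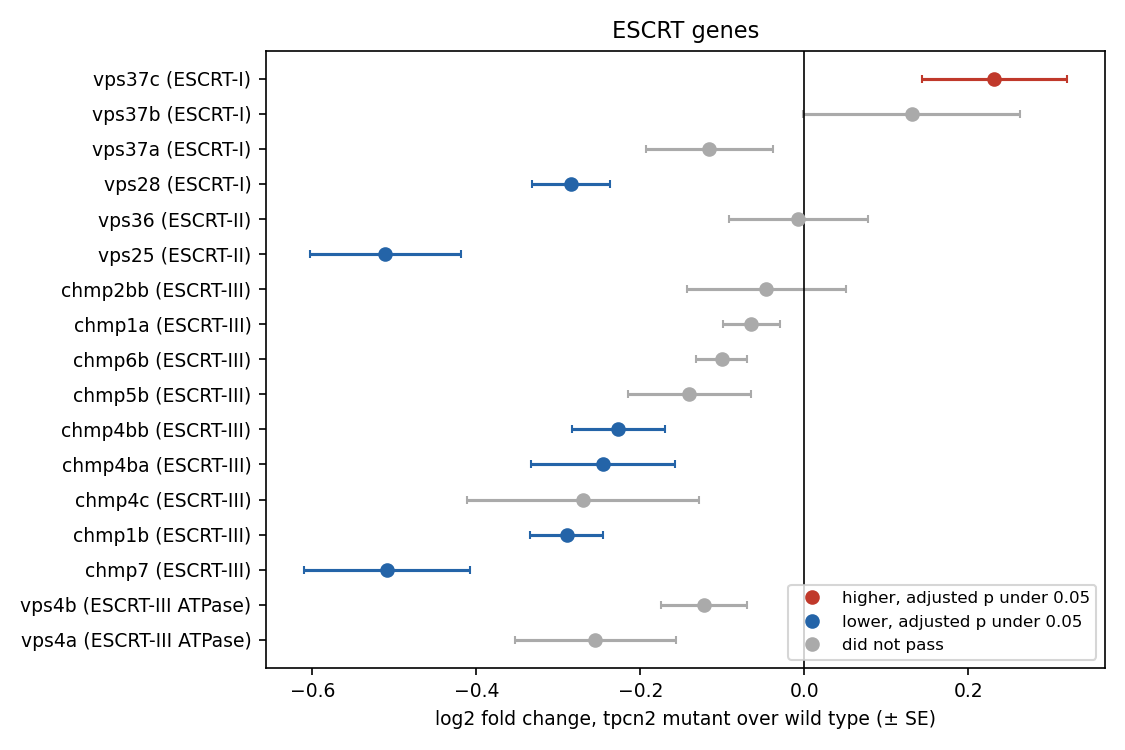
Log2 fold change (tpcn2 mutant over wild type, x axis) of the 17 tested ESCRT genes by complex, with bars of ± 1 SE. Blue genes were called lower, the red gene vps37c higher and grey genes did not pass. The values run from -0.51 (vps25) to 0.23 (vps37c). The 9 ESCRT-III genes are all below 0, as are 5955 of all 11871 tested genes.

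Upstream of ESCRT-III, vps25 of ESCRT-II was at 8.89, 10.1, 8.36, 8.47 and 9.93 CPM in the 5 mutant libraries, against 13.3, 12, 12.7, 15.6 and 11.6 CPM in the 5 wild-type libraries and fell (-0.51 ± 0.0922, adjusted p = 0.00151). The other ESCRT-II gene among the members, vps36, did not pass (-0.01 ± 0.0847). vps28 of ESCRT-I was at 88, 82.7, 94.3, 80.9 and 91.2 CPM in the 5 mutant libraries, against 112, 107, 102, 107 and 105 CPM in the 5 wild-type libraries, without overlap (-0.28 ± 0.0473, adjusted p = 0.000667). vps37c, an alternative ESCRT-I subunit beside vps37a and vps37b, was the ESCRT member that rose (0.23 ± 0.0884, adjusted p = 0.0345), with its groups overlapping. That call ended without mutant replicates 1 or 5 or wild-type replicates 2, 3 or 5 (adjusted p = 0.0684 to 0.0868). The Vps4 genes vps4a (-0.26 ± 0.0981, adjusted p = 0.0502) and vps4b (-0.12 ± 0.0526, adjusted p = 0.0865) did not pass. vps4a passed without mutant replicates 2 or 5 or wild-type replicate 1 (adjusted p = 0.0132 to 0.0467), without scaling of library sizes (0.0468), with DESeq2 (0.039) and with limma-voom (0.0466), and vps4b without mutant replicate 3 (adjusted p = 0.0419).

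Adaptor subunits held the largest share of calls among the 5 symbol families. AP-1 works between the trans-Golgi network and endosomes, and 4 of its 8 tested subunit genes fell and none rose (50% lower, against 21.6% of all genes). ap1s2, a small subunit, was at 113, 117, 105, 120.1 and 107 CPM in the 5 mutant libraries, against 167, 177, 167, 168 and 164 CPM in the 5 wild-type libraries. The lowest wild-type library was well above the highest mutant library, and the log2 fold change was -0.58 ± 0.0394 (SE; edgeR adjusted p = 5.48e-07). Its alternative ap1s1 fell too (-0.39 ± 0.0348, adjusted p = 2.37e-05), at 67.4 to 74.3 CPM in the mutant libraries and 87.7 to 96.1 CPM in the wild-type libraries, whereas ap1s3b did not pass (0.13 ± 0.0951). The large gamma subunit genes ap1g1 (-0.24 ± 0.097, adjusted p = 0.0303) and ap1g2 (-0.28 ± 0.0845, adjusted p = 0.0251) were lower with overlapping groups. The call of ap1g1 ended without mutant replicates 1, 2, 3 or 5 or wild-type replicates 3 or 4 (adjusted p = 0.0503 to 0.0785). That of ap1g2 ended without mutant replicates 1 or 5 or wild-type replicate 4 (adjusted p = 0.0621 to 0.0659). ap1b1, ap1m2 and ap1m3 did not pass, although ap1m3 did without wild-type replicate 2 (adjusted p = 0.0173).

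AP-3 sends cargo to lysosomes and lysosome-related organelles, and 3 of its 4 genes here fell (75% lower, against 21.6% of all genes). ap3m1, the medium subunit that recognises cargo, was at 78.3, 69.9, 69.1, 81.6 and 70.2 CPM in the 5 mutant libraries, against 168, 135, 300.5, 228 and 201 CPM in the 5 wild-type libraries. The mutant libraries lay close together and below all of the scattered wild-type libraries, and the log2 fold change was -1.48 ± 0.202 (SE; edgeR adjusted p = 6.82e-06). The alternative medium subunit gene ap3m2 did not pass (-0.11 ± 0.0811). ap3d1, of the delta subunit, was at 64.8 to 73.6 CPM in the mutant libraries and 75.4 to 85.6 CPM in the wild-type libraries (-0.22 ± 0.0457, adjusted p = 0.00525), and ap3s2 fell (-0.41 ± 0.113, adjusted p = 0.00477) with overlapping groups. Of AP-4, which exports cargo such as an autophagy membrane protein from the trans-Golgi network, ap4b1 was at 7.45, 6.08, 7.09, 5.8 and 5.3 CPM in the 5 mutant libraries, against 12.8, 10.2, 13, 12.4 and 12.6 CPM in the 5 wild-type libraries. It fell to about 0.52 of the wild-type level (-0.94 ± 0.11, adjusted p = 2.45e-05). ap4m1 was also lower (-0.24 ± 0.059, adjusted p = 0.0294), a call that ended without mutant replicates 1, 2 or 4 or wild-type replicates 1 or 2 (adjusted p = 0.0539 to 0.0735), and ap4s1 did not pass (0.18 ± 0.0668).

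Of AP-5, found on late endosomes, 1 of 2 tested genes rose (20.6% of all genes were higher). ap5s1 was at 5.17, 5.8, 5.91, 4.7 and 4.63 CPM in the 5 mutant libraries, against 1.75, 3.23, 1.45, 2.75 and 3.04 CPM in the 5 wild-type libraries, more than doubling on average (1.09 ± 0.232, adjusted p = 0.000751). These CPM rest on few reads, 27 to 121 per library. ap5m1 was at 8.65 to 9.48 CPM in the mutant libraries and 6.96 to 8.44 CPM in the wild-type libraries; the groups did not overlap, but the change of 0.22 ± 0.05 (SE; edgeR adjusted p = 0.0813) did not pass.

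**Figure D4:**
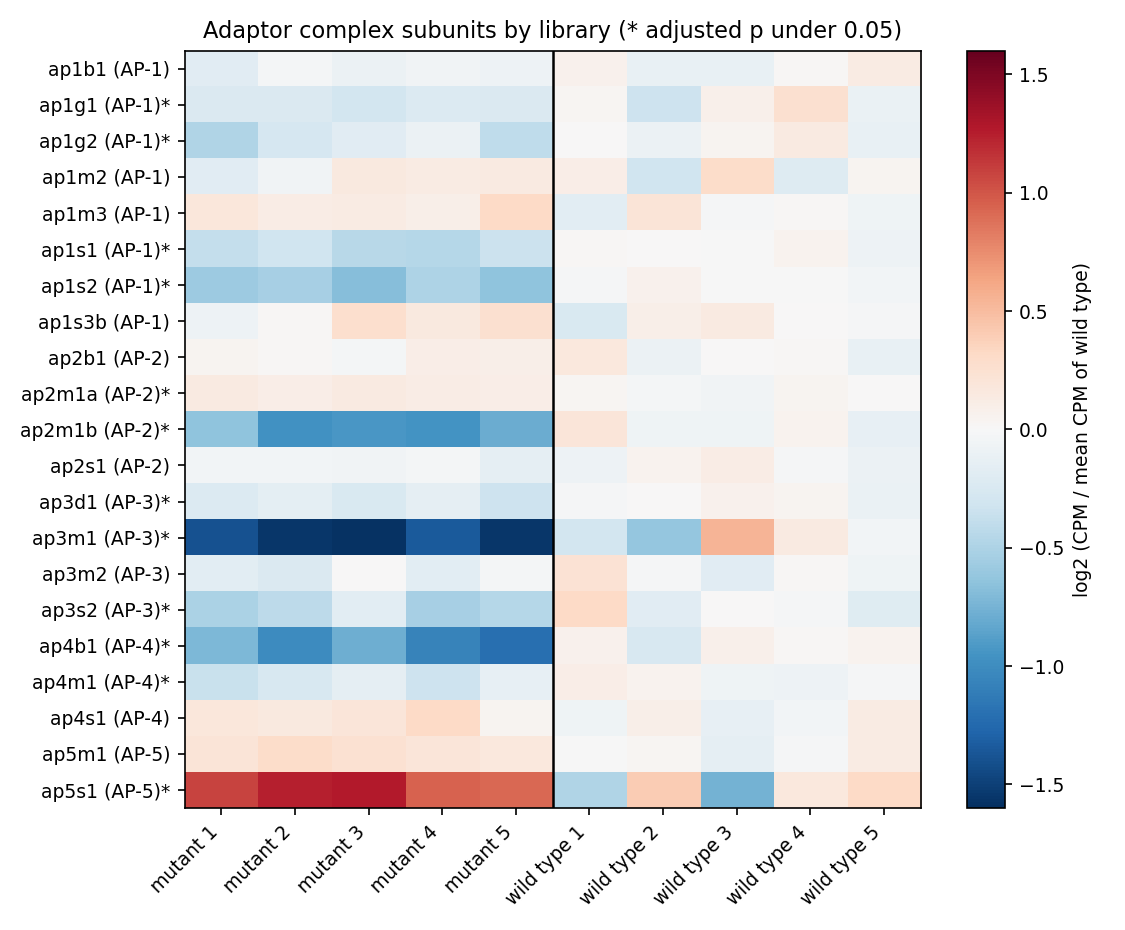
Log2 ratio of CPM to the wild-type mean (colour scale) for the 21 tested adaptor subunit genes (rows, with the complex in brackets) in each mutant library (left of the line) and wild-type library (right). Red is above and blue below the wild-type mean, and asterisks mark adjusted p under 0.05: ap3m1 (-1.48) and ap4b1 (-0.94) are blue and ap5s1 (1.09) is red in all 5 mutant libraries.

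AP-2 drives clathrin-mediated endocytosis at the plasma membrane, and the zebrafish genome holds a pair of genes for its medium subunit. They moved in opposite directions. ap2m1b was at 68.9, 55.1, 56.4, 55.2 and 62.1 CPM in the 5 mutant libraries, against 123, 102, 102, 112 and 98.1 CPM in the 5 wild-type libraries, a log2 fold change of -0.85 ± 0.0855 (SE; edgeR adjusted p = 1.23e-06). ap2m1a was at 304, 296, 304, 297 and 296 CPM in the 5 mutant libraries, against 280.4, 268, 264, 282 and 275 CPM in the 5 wild-type libraries, a change of 0.13 ± 0.0205 (SE; edgeR adjusted p = 0.015). Neither gene had overlapping groups. Of the reads on the pair, scaled as CPM, ap2m1b took 15.7 to 18.5% in the mutant libraries, against 26.3 to 30.4% in the wild-type libraries. Similar sequence may have split reads between the pair. The other AP-2 genes among the members, ap2b1 (0.05 ± 0.0561) and ap2s1 (-0.06 ± 0.0454), did not pass. The alpha subunits of AP-2 lie outside the rule and are not covered.

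ap2m1 was the only such pair with opposite calls. The members hold 27 pairs of symbols that differ by a final a or b, some of them duplicates of teleost fish and others paralogs that mammals also have. In 23 pairs both genes were tested. Both fell in 3 of these pairs (rab18, rab11fip4 and chmp4b), 1 gene alone was called in 7, and neither in 12. For scale, 42.2% of all tested genes were called, 20.6% higher and 21.6% lower. Whether genes of a pair were called together more often than other genes was not tested. Where 1 gene alone was called, the difference between the genes of the pair was not tested.

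**Figure D5:**
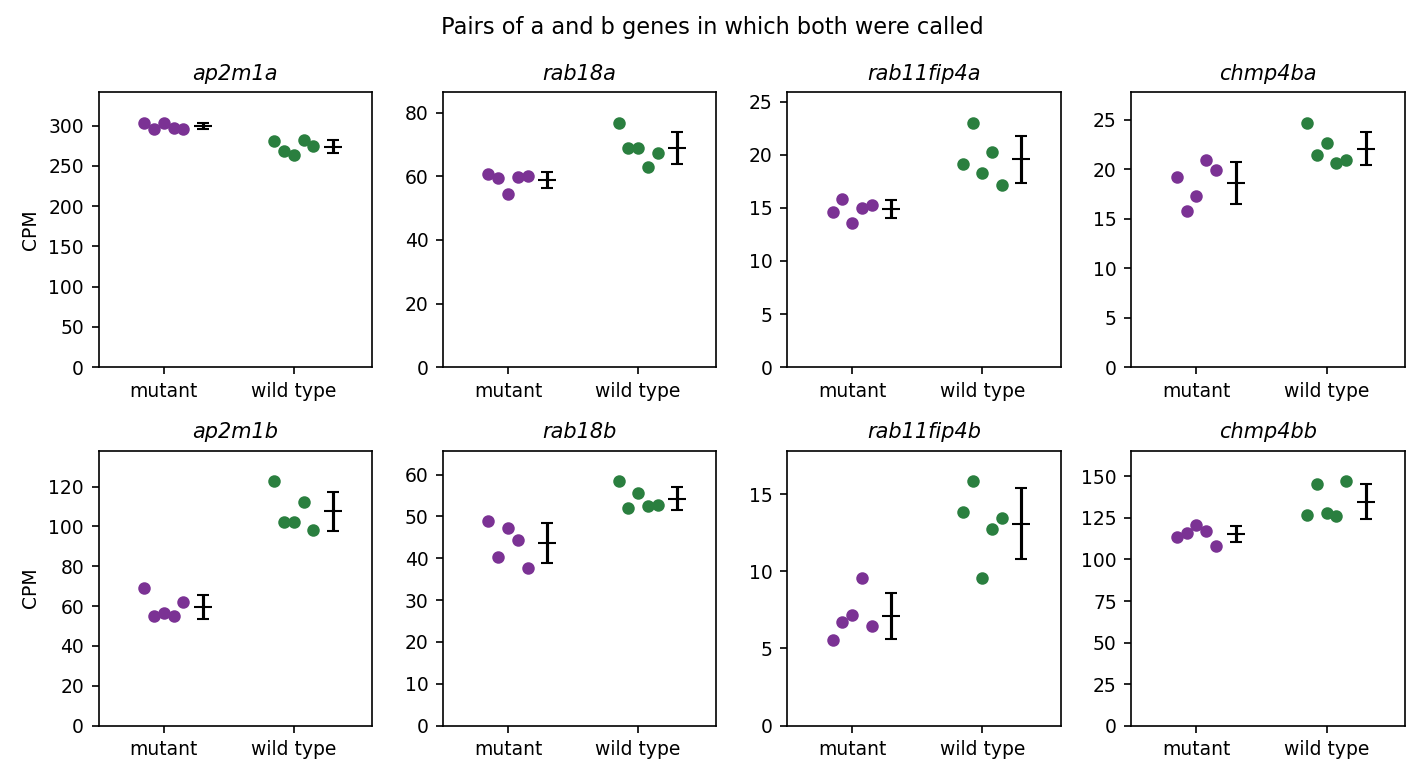
CPM (y axis, from 0) in each library of the 4 pairs in which both genes were called, a genes above and b genes below, with mutant libraries in purple, wild-type libraries in green and the mean and SD of 5 libraries in black. ap2m1a is higher in the mutant and ap2m1b lower, whereas both genes of the rab18, rab11fip4 and chmp4b pairs are lower.

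Genes that work with the members but do not match the rule were called about as often as all genes. Of 148 tested partners 26 rose and 35 fell, 41.2% against 42.2% of all genes. Among regulators of the Rab cycle 7 rose and 4 fell of 28 (39.3% called). mon1a had the largest rise of all tested partners (1.05 ± 0.203, adjusted p = 0.000107), without overlap. It was at 28.3 to 37.6 CPM in the mutant libraries and 9.8 to 20.9 CPM in the wild-type libraries. ccz1 rose without overlap too (0.27 ± 0.0479, adjusted p = 0.000826). rabggtb, a subunit of the enzyme that attaches the lipid anchor of Rabs, was at 51.1 to 61.8 CPM in the mutant libraries and 72.7 to 83.9 CPM in the wild-type libraries and fell (-0.49 ± 0.0659, adjusted p = 4.51e-05). The gene of the enzyme's other subunit, rabggta, rose without overlap (0.62 ± 0.164, adjusted p = 0.00175). Among tethers, effectors and phosphoinositide enzymes 6 rose and 6 fell of 26 (46.2%). plekhm1, a Rab7 effector that binds HOPS, was at 45.5, 44.7, 49, 40.1 and 37.3 CPM in the 5 mutant libraries, against 16.6, 23.5, 28.9, 25.5 and 18.7 CPM in the 5 wild-type libraries (0.94 ± 0.161, adjusted p = 6.16e-05). plekhm2 moved the other way, without overlap (-1.47 ± 0.11, adjusted p = 4.71e-07). It averaged 4.96 CPM in mutant embryos and 13.7 CPM in wild type. The phosphoinositide phosphatase gene inpp4aa was at 6.03 to 8.92 CPM in the mutant libraries and 21 to 26.4 CPM in the wild-type libraries (-1.57 ± 0.125, adjusted p = 2.42e-07).

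The ESCRT-0, ESCRT-I and ALIX partners, listed with further ESCRT-related genes, gave 8 lower and 1 higher of 18, 44.4% lower against 21.6% of all genes. Of the further genes ist1, vta1 and stambpa fell, whereas mitd1 and stambpb did not pass. Nor did snf8, of ESCRT-II (0.07 ± 0.107, adjusted p = 0.638). stam2, of the ESCRT-0 complex that first binds ubiquitinated cargo, was at 79.5, 67.1, 72.9, 81.8 and 78.5 CPM in the 5 mutant libraries, against 104, 98.8, 101, 101 and 98.3 CPM in the 5 wild-type libraries (-0.41 ± 0.054, adjusted p = 6.48e-05). mvb12ba, of ESCRT-I, rose (0.42 ± 0.117, adjusted p = 0.00319), whereas mvb12a, also of ESCRT-I, fell without overlap (-0.79 ± 0.15, adjusted p = 0.000403). Among WASH, Commander and cargo receptor genes 3 rose and 6 fell of 17 (52.9% called, against 42.2% of all genes), with commd5 higher (0.47 ± 0.131, adjusted p = 0.00295) and commd2 lower (-0.49 ± 0.082, adjusted p = 0.000194). Clathrin, its adaptors and accessory proteins gave 7 higher and 2 lower of 29 (31% called). The endocytic scaffold gene itsn2b rose (0.70 ± 0.0713, adjusted p = 3.51e-06) and clta, a clathrin light chain, fell (-0.34 ± 0.0295, adjusted p = 2.67e-05), with 131 to 143 CPM in the mutant libraries and 168 to 176 CPM in the wild-type libraries. Endosomal SNAREs, EHD proteins and exocyst gave 2 higher and 9 lower of 30 (36.7% called), with the exocyst gene exoc6 higher (0.23 ± 0.0394, adjusted p = 0.0108) and the recycling SNARE vamp3 lower (-0.23 ± 0.0255, adjusted p = 0.00045).

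Marker lists of other cell types held calls in both directions, and their part in the members' results was not tested. Muscle markers summed to 4896 to 5789 CPM in mutant and 5454 to 6745 CPM in wild-type libraries, with 11 of 18 lower and 1 higher (66.7% called, against 42.2% of all genes). Epidermis and periderm markers summed to 36292 to 40275 CPM in mutant embryos and 36158 to 41952 CPM in wild type, with 7 lower and 5 higher of 21 (57.1%). Most of that sum was krt4, which averaged 28882 CPM in mutant embryos and 28865 CPM in wild type. The sum therefore says little about the other markers, and log2 fold changes in this list ran from -2.68 (icn) to 0.68 (anxa1a). Yolk syncytial layer and hatching gland markers summed to 18725 to 21328 CPM in mutant embryos and 14562 to 21057 CPM in wild type, with 5 higher and 3 lower of 16 (50%). Blood and endothelial markers summed to 763 to 858 CPM in mutant embryos and 704 to 786 CPM in wild type, with 6 higher and 3 lower of 19 (47.4%). No marker of these lists was at 0 in every library.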

How the data were processed

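Whole-embryo RNA-seq libraries of 5 tpcn2 mutant and 5 wild-type samples were grouped by their titles. The deposited table holds raw read counts per gene symbol, 1 column per library. Per the submitters' processing notes reads were handled with cutadapt 3.4 and STAR 2.7, and the zebrafish build danRer10 is named beside a mouse build without a role. No source used here gives the counting program, the annotation or the strand setting, so overlapping genes and similar paralogs may share reads. The authors' own comparison was not used.

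Genes were kept by edgeR's filterByExpr and scaled by TMM. The quasi-likelihood test of edgeR 4.0.16 compared mutant with wild type in 1 fit of all 10 libraries without covariates, with Benjamini-Hochberg adjustment over all tested genes and a threshold of 0.05. CPM are TMM-scaled, and the SE is that of the difference between the groups' mean log2 CPM (prior count 2). Totals of 17890367 to 22498643 counts per library limit the precision of low genes. The test was checked on simulated data. Gene lengths were not used, so levels of different genes are not compared.

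By rule the text named, in each role, up to 3 higher and 3 lower called members whose groups did not overlap, averaging 1 CPM or more and ranked by size of change. It also named members changed at least 2-fold, pairs with opposite calls, members of counted complexes, and in each partner list the gene of smallest p per direction. Other Rabs and sorting nexins, vps45, vps13a, vps72 and some values by library were added after their values were seen. The same holds for tgfbrap1, rabgef1, mon1a, ccz1, plekhm2, rabggta, mvb12a and the further ESCRT-related partners. It also holds for the single markers named, mlpha among them. Most of the members added complete a role. The partners added do not complete their lists, and most of them were called genes. A partner that the rule names is not reported here. The members, the gene lists and their roles were chosen with earlier results of these data known. Alternatives were RLE size factors, no scaling, DESeq2 1.42.0, limma-voom (limma 3.58.1), no filter, a mean of at least 1 CPM, a replicate block and the omission of each library in turn. No 2 libraries agreed within sampling noise. Partner symbols were matched to the count table through current and older zebrafish names, which placed 149 of 239 listed genes.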

Additional observations from a re-analysis of the deposited data

Results flagged for a closer look

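A library far from the other 4 of its group was found in 4 of 100 groups (50 genes, 2 genotypes). The cut-off would flag about 1 in 20 groups of unselected, normally distributed values. Many of these genes were named because their groups did not overlap, so the count cannot be judged against that rate. rab18a was at 54.3 CPM in mutant replicate 3, against 59.6 to 60.7 CPM in the rest of its group. ap4b1 was at 10.2 CPM in wild-type replicate 2, against 12.4 to 13.0 CPM in the rest of its group. snx11 was at 67.4 CPM in wild-type replicate 3, against 53.4 to 56.6 CPM in the rest of its group. vps26bl was at 15.6 CPM in wild-type replicate 1, against 17.0 to 17.4 CPM in the rest of its group. The calls of these 4 genes held in all 17 alternatives.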

How the results depend on the processing

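Counts of calls stayed within 1.5 times their main value under all 17 alternatives. Members called higher and lower numbered 23 and 35 with DESeq2, 20 and 33 with limma-voom, 19 and 35 without scaling, and 17 to 22 and 28 to 37 when single libraries were left out. The log2 fold change of tpcn2 stayed between -2.71 and -2.49 without single libraries. With the replicate block 18 members were higher and 32 lower, 49 of them among the 54 main calls, and ap4m1, chmp4ba, rab11a, rab4a and vps45 were lost while vps4a was gained (adjusted p = 0.0314). Over all genes the replicate block gave 2378 higher and 2451 lower calls. Mutant and wild-type libraries of the same number deviated together with correlations of -0.06 to 0.07, so the numbers were not taken as pairs, and 2 of 5 mutant libraries correlated best with their own number. Of the 54 members called, 43 kept their call in all 17 alternatives, 11 lost it in at least 1 and none changed direction, and 19 members not called passed in at least 1. Without a filter on low counts chmp2ba was called too. Among members called, rab11bb, rab3c and ap5s1 rest on the fewest reads (687, 730 and 765 over all libraries).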

Other observations

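In the gene order of the GRCz12tu assembly, 9 tested members lie on the chromosome of tpcn2, and 2 of them were called, both lower, where 42.2% of all tested genes were called and 21.6% were lower. These were ap1g1, the nearest member at 23 tested genes from tpcn2, and ap1s1, at 314 tested genes. chmp5b, at 39 tested genes, did not pass.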
